A study of Drosophila melanogaster with 24 samples.

Results

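A module of 103 transcripts, out of 15473 on the array, was high in the prepupal wing at 6 h after puparium formation (APF) and low in the pupal wing at 36 h APF. Members were chosen on the mean log2 intensity of each stage. The 6 h APF mean had to lie at least 1 above the mean of the last larval instar (L3), the 36 h APF mean at least 1 below it, and the 6 h APF mean less than 2.5 above the highest of the other 5 stages. On the log2 scale a difference of 1 is a 2-fold change. Both fold limits were met by 129 transcripts, and the upper limit left out 26 of them as near-exclusive 6 h APF peaks. These values chose the members, so levels at 6 and 36 h APF relative to L3 are given as a description, without a test.

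The tissue was dissected wings of late L3 larvae and of animals at 2 h, 6 h, 18 h, 24 h and 36 h APF, all of 1 genotype, w1118;+;+ (Bloomington Stock #3605), a white-eyed laboratory strain. Each sample held total RNA of 10 wings. There were 4 separately obtained samples per stage, or 3 at 36 h APF, where an additional array carried a mix of the RNA of samples B and D. Up to 6 h APF the dissected tissue included presumptive notum, the part of the disc that forms the dorsal thorax, and from 18 h APF on it did not, so stage and tissue cannot be told apart between these sets. Stages were taken from titles and descriptions, with which another label of 14 arrays disagrees. In bulk RNA, fewer cells of a type and less RNA per cell cannot be told apart.

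Metamorphosis of the fly wing is timed by pulses of the steroid hormone ecdysone. A pulse at the end of larval life triggers puparium formation, a smaller prepupal pulse follows before the head everts, and a larger pupal pulse comes later. Under these pulses the folded larval disc turns inside out and elongates, its cells divide for the last time, and the pupal wing goes on to form hairs and cuticle. This is background, and none of it was measured in these arrays.

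The array reported FlyBase transcript identifiers (FBtr numbers), and none of the 103 members could be tied to a gene name through a Release 6 gene table, which named a single gene for only 17 transcripts of the array. Members are therefore described by identifier and by stage, and their functions were not analysed here. The labelled tissue could not be checked against wing marker genes for the same reason. Each intensity came from 4 probes for 52 members and from 5 probes for 51, or 49.5% of members, against 65.3% of all transcripts with 5 probes. Array medians over all transcripts lay between 9.28 and 9.58 on the log2 scale, and no array repeated another.

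The median log2 intensity of the members was 9.54, 9.79, 9.74 and 9.81 on the 4 L3 arrays. It was 9.90, 10.55, 10.26 and 9.94 at 2 h APF, and 11.60, 11.46, 11.62 and 11.54 at 6 h APF. At 6 h APF the median stood above that of every array of every other stage, and it differed little between replicates. The lower quartile of the members differed more, with 9.82 on array B and 10.18 to 10.42 on the others. Single members could vary widely, such as FBtr0085462 with an SD of 2.29 at 6 h APF. At 18 h APF the median was 9.35, 9.47, 8.48 and 9.39, and at 24 h APF it was 8.87, 8.36, 8.88 and 9.41. At 36 h APF it was 7.71, 7.70 and 7.65, and the pooled array gave 7.56. The 36 h APF arrays lay under all others, while those of 18 and 24 h APF overlapped each other.

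Relative to L3, the median member differed by 0.40 at 2 h, by 1.58 at 6 h, by -0.41 at 18 h, by -0.88 at 24 h and by -1.55 at 36 h APF on the log2 scale. The median log2 level over all transcripts and arrays was 9.45, and members with a stage mean above it numbered 56 at L3, 63 at 2 h, 93 at 6 h, 46 at 18 h, 35 at 24 h and 22 at 36 h APF. This count was highest at 6 h APF and lowest at 36 h APF. The rule fixed both directions relative to L3, so nothing is read from them. The files carried no detection call, so it is not known how many members were still above background at 36 h APF.

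**Figure D1:**
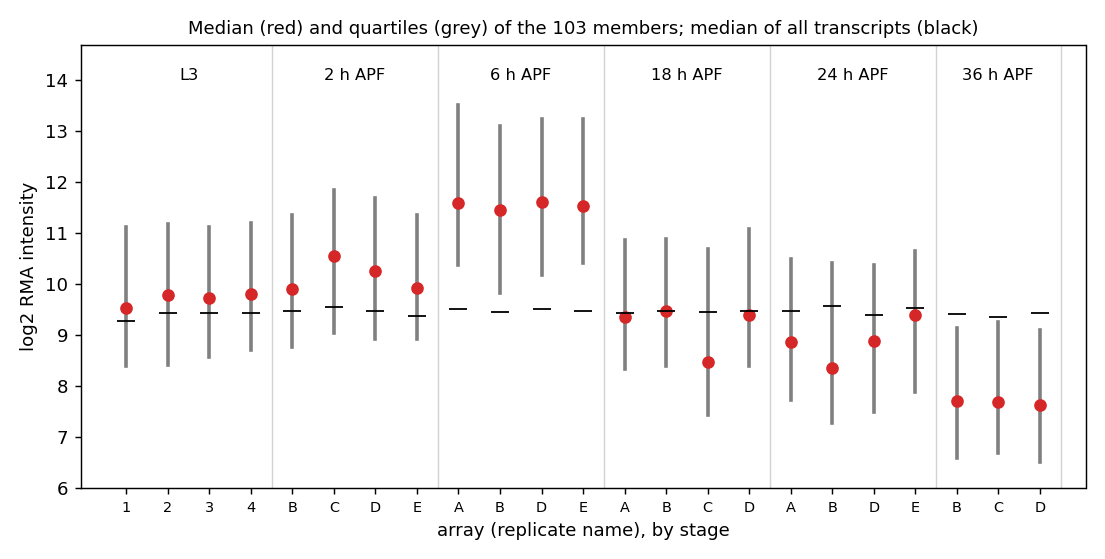
Log2 RMA intensity (y axis) of the 103 members on each of the 23 arrays of independent samples (x axis, grouped by stage). Red points are the median of the members, grey bars their quartiles and black dashes the median of all transcripts. The members' median lies between 11.46 and 11.62 at 6 h APF and between 7.65 and 7.71 at 36 h APF, while that of all transcripts stays between 9.28 and 9.58.

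Differences between 6 h APF and L3 ran from 1.01 to 3.86 on the log2 scale, and 28 members exceeded 4-fold. Differences between 36 h APF and L3 ran from -4.84 to -1.0003, and 36 members exceeded 4-fold. Both exceeded 4-fold for 17 members. The limits cut through a continuous range. FBtr0080229 lay just inside the 6 h APF limit at 1.01 and FBtr0071246 just outside it at 0.99. FBtr0083434 lay just inside the 36 h APF limit at -1.0003 and FBtr0087530 just outside it at -0.99. At the upper limit, the 6 h APF mean of FBtr0071942 was 2.40 above its next stage and that of FBtr0070940, outside the module, 2.58.

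A 6 h APF maximum was the common form but not the only one. The highest stage mean was that of 6 h APF for 89 members, 2 h APF for 9, 18 h APF for 3 and 24 h APF for 2. The lowest was that of 36 h APF for 84 members, 24 h APF for 12, 18 h APF for 6 and 2 h APF for 1. For 67 members all 4 arrays of 6 h APF lay above the other 19, which held for 5.13% of all transcripts, and for 45 members all 3 arrays of 36 h APF lay under the other 20, which held for 14.5% of all transcripts. Nothing is read from either count, since the rule used both stages.

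The descent from 6 to 36 h APF was uneven. By their means, 54 members were lower at each next stage after 6 h APF. The largest step down came between 6 and 18 h APF for 72 members, between 24 and 36 h APF for 26 and between 18 and 24 h APF for 5. The median change over these steps was -2.09 for 6 to 18 h APF, -0.26 for 18 to 24 h APF and -0.90 for 24 to 36 h APF. These steps are unlike, since the step from 18 to 24 h APF spans fewer hours and holds neither stage of the fold limits. The notum was also missing from 18 h APF on. At 36 h APF, 15 members had a mean at or above their 24 h APF mean. The pooled 36 h APF array, which the rule did not use, lay 1 or more under the L3 mean for 86 of the 103 members. It shares RNA with samples B and D, and the L3 mean also served the rule, so nothing is read from this count.

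**Figure D2:**
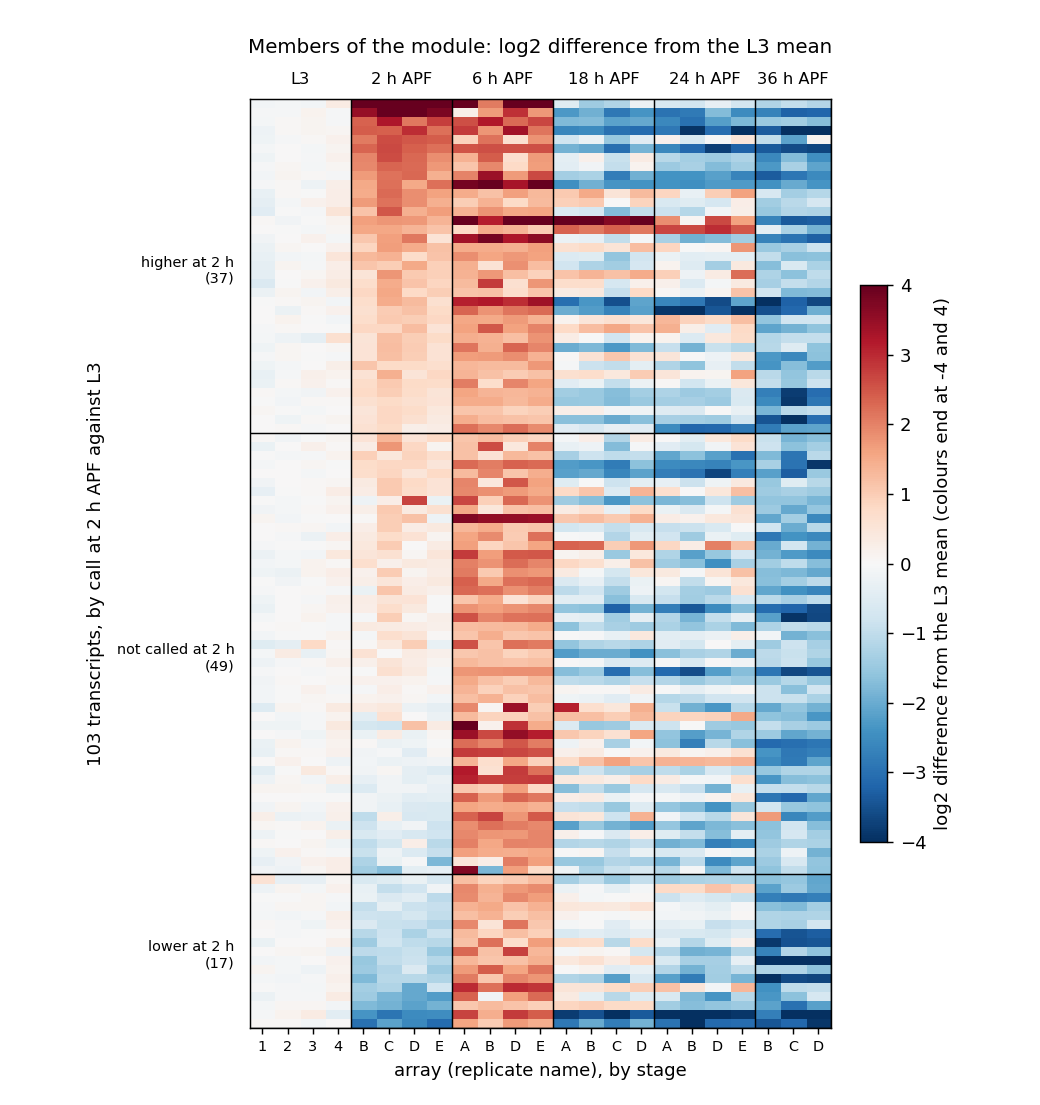
Log2 difference from the L3 mean (colour, ending at -4 and 4) for the 103 members (rows) on the 23 arrays of independent samples (columns, by stage). Rows are grouped by the test of 2 h APF against L3, with 37 members called higher (10.9% of all transcripts were), 49 not called and 17 called lower (10.5% of all transcripts were). Nearly all rows are red at 6 h APF and blue at 36 h APF, which the rule required, and the groups differ in colour at 2 h APF by the call that grouped them.

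The members with the widest span between 6 and 36 h APF had very different courses. FBtr0076909 read 11.95, 12.13, 12.33 and 11.56 at L3, 9.63, 9.08, 9.48 and 9.51 at 2 h, and 14.71, 13.45, 14.79 and 14.41 at 6 h APF. It then read 8.20, 8.52, 7.78 and 8.65 at 18 h, 7.39, 6.52, 7.85 and 8.11 at 24 h, and 9.25, 6.49 and 5.71 at 36 h APF. The 6 h APF arrays stood far above all others, the 2 h APF arrays lay wholly under L3, and 1 array of 36 h APF was well above the other two. The 6 h APF mean was 146-fold the 36 h APF mean, the widest span in the module. That size rests on single arrays, since it was 302-fold without array B of 36 h APF, the one that read 9.25, and 88.6-fold without array D, the one that read 5.71, alternatives added after the data were seen.

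FBtr0085573 formed a plateau over 6 and 18 h APF. It read 10.67, 10.48, 10.61 and 10.77 at L3, 12.27, 12.41, 12.36 and 11.98 at 2 h APF, and 14.85, 13.79, 14.71 and 14.64 at 6 h APF. It read 14.86, 15.00, 14.30 and 15.24 at 18 h, 12.50, 10.73, 13.28 and 12.24 at 24 h, and 7.96, 7.28 and 7.34 at 36 h APF. The 6 and 18 h APF arrays overlapped and lay above all others, and the 24 h APF arrays spread over more than 2 units.

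FBtr0085102 had stage means of 10.59 ± 0.10 at L3, 11.60 ± 0.42 at 2 h and 13.76 ± 0.18 at 6 h APF. The means were 7.85 ± 0.65 at 18 h, 7.80 ± 0.61 at 24 h and 6.96 ± 0.39 at 36 h APF (SD, n = 4 arrays, 3 at 36 h APF), so most of its descent was over by 18 h APF. FBtr0070836 was at 14.41 ± 0.27 at 6 h APF and lower at each later stage, with 10.49 ± 0.40 at 18 h, 9.32 ± 0.28 at 24 h and 7.94 ± 0.29 at 36 h APF.

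The narrowest spans were 4.28-fold for FBtr0085474, 4.35-fold for FBtr0083434, 4.41-fold for FBtr0080229 and 4.46-fold for FBtr0081917, each as 6 h APF over 36 h APF. FBtr0085474 was lowest at 18 h APF, where it averaged 9.65 ± 0.22, with 10.26 ± 0.36 at 24 h and 10.75 ± 0.16 at 36 h APF. FBtr0081917 was highest before 6 h APF, with 9.52 ± 0.28 at 6 h APF, against 10.19 ± 0.31 at 2 h APF.

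**Figure D3:**
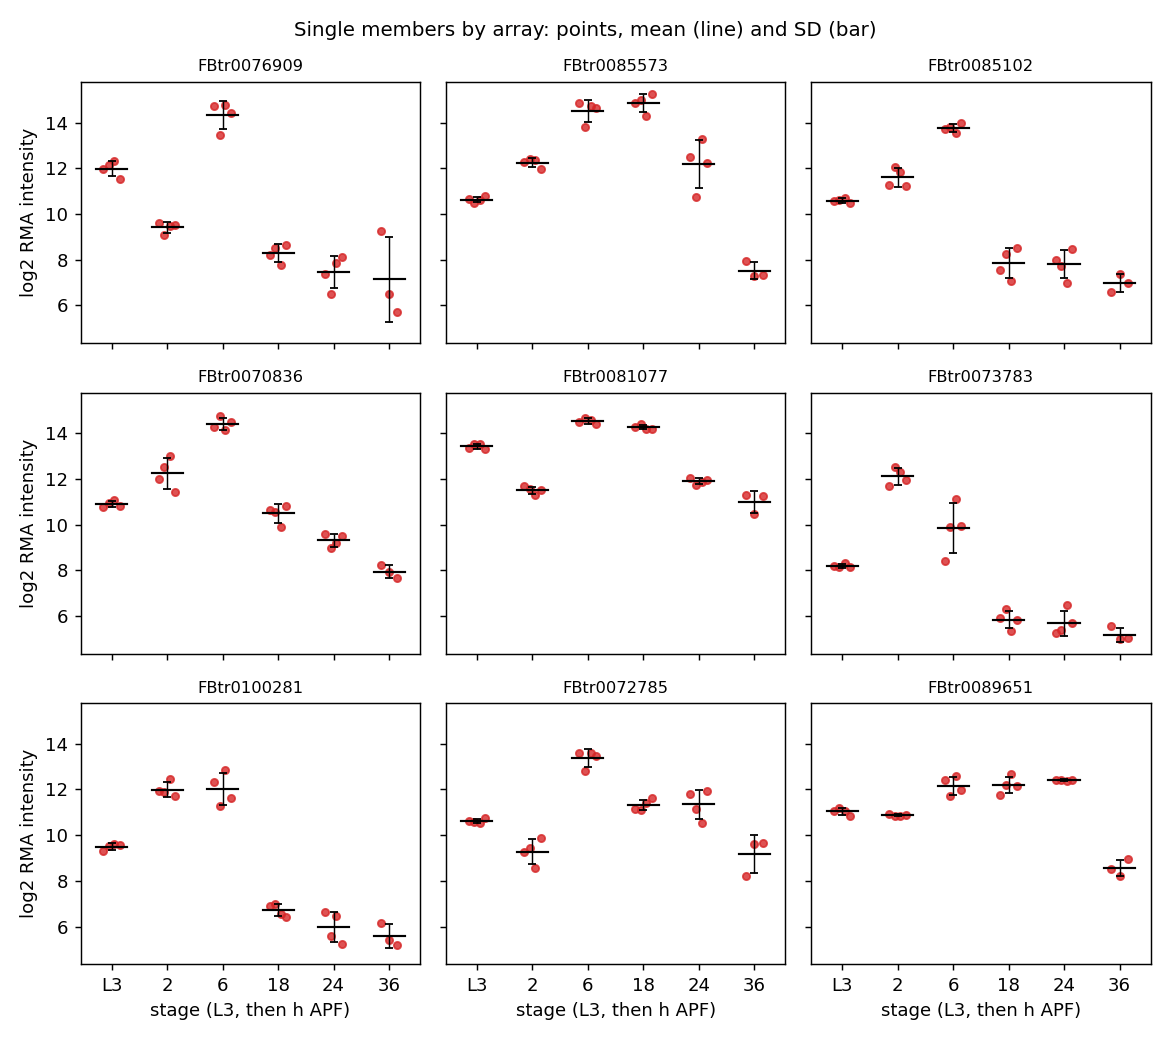
Log2 RMA intensity (y axis) by stage (x axis) for 9 members. Points are arrays, lines are stage means and bars are SD (n = 4, 3 at 36 h APF). FBtr0076909 is low at 2 h APF between the high values of L3 and 6 h APF, FBtr0085573 and FBtr0081077 hold their 6 h APF level at 18 h APF, and FBtr0073783 and FBtr0100281 are already high at 2 h APF.

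The stages between those of the rule were then compared with limma over all 15473 transcripts. The upper limit of the rule touched these stages for part of the module. In 13 members the 6 h APF mean was 2.5 or more above L3, so that 2, 18 or 24 h APF had to be high for them to be kept, and where they are described no test is given. The other 90 met the limit through L3 alone, and their counts stand beside those of the whole module. Among the 13, a member kept only through 2 h APF had to be higher there than at L3, 18 h and 24 h APF. A member kept only through 18 h APF likewise had to be higher there. The rule fixed these directions, so only the counts of the 90 are free of them.

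The test of 2 h APF against L3 asks what the members did at puparium formation. Its L3 arrays also served the rule, which fixed its direction only for members kept through 2 h APF alone. The counts of the whole module include those members. At 2 h APF 37 of the 103 members rose and 17 fell at an adjusted p under 0.05, or 35.9% and 16.5%. Over all transcripts 10.9% rose and 10.5% fell. Of the 90 members whose place did not depend on 2, 18 or 24 h APF, 29 rose and 16 fell, or 32.2% and 17.8%. The median difference was 0.40 for the members, against -0.04 over all transcripts.

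Among these 90 members, FBtr0073783 read 11.69, 12.54, 12.28 and 11.96 at 2 h APF, against 8.17, 8.16, 8.33 and 8.15 at L3, a difference of 3.92 ± 0.38 (SE; limma, adjusted p = 2.2e-07). The groups were far apart. At 6 h APF FBtr0073783 varied between replicates, with 8.42, 9.91, 11.13 and 9.95, the first of them close to the L3 arrays. FBtr0077376 and FBtr0070631, at 3.70 and 2.68 above L3 at 6 h APF, met the upper limit only through 2 h APF, so their values are a description. FBtr0077376 read 10.82, 10.88, 11.58 and 10.72 at 2 h APF, against 6.49, 6.53, 6.48 and 6.92 at L3. By their means, both it and FBtr0073783 were higher at 2 than at 6 h APF. FBtr0070631 had means of 12.99 ± 0.39 at 6 h APF and 12.93 ± 0.50 at 2 h APF, close to each other.

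Other members fell at 2 h APF although they were high again at 6 h APF. FBtr0089956 read 7.05, 7.90, 7.47 and 6.95 at 2 h APF, against 10.08, 10.09, 9.93 and 10.07 at L3. All arrays of 2 h APF lay under those of L3, the transcript fell by 2.70 on the log2 scale (limma, adjusted p = 2.5e-07), and at 6 h APF it averaged 11.48 ± 0.29. FBtr0076909 fell by 2.57 at 2 h APF (limma, adjusted p = 0.00099). FBtr0081077 read 11.67, 11.54, 11.29 and 11.52 at 2 h APF, against 13.34, 13.52, 13.51 and 13.33 at L3, and fell by 1.92 (limma, adjusted p = 6.6e-09). The members described for this comparison were singled out after their values were seen, as those with the largest differences in each direction.

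Members grouped by their 2 h APF call had the following medians relative to L3. Those that rose had 1.14 at 2 h, 1.57 at 6 h, -0.48 at 18 h, -0.46 at 24 h and -1.53 at 36 h APF. The 49 that were not called had 0.28, 1.67, -0.42, -0.93 and -1.38 at the same stages, and the 17 that fell had -1.11, 1.44, -0.16, -0.90 and -1.88. The median difference at 6 h APF was close in all 3 groups, and those that fell started from the highest L3 level, a median of 10.62, with 9.35 for those that rose and 9.40 for those not called. No test was made between these groups.

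The test of 18 h APF against 2 h APF compares the stages on either side of 6 h APF. At 18 h APF 50 members fell and 19 rose, or 48.5% and 18.4%. Over all transcripts 14.3% fell and 12.4% rose. Of the 90 members that met the upper limit through L3, 43 fell and 15 rose, and the fallers made up 47.8%. The median difference was -0.72 for the members, against 0.03 over all transcripts. This comparison shares its 2 h APF arrays with that of 2 h APF against L3, and the tissue at 18 h APF lacked the notum.

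FBtr0073783 fell most. It read 5.89, 6.29, 5.35 and 5.84 at 18 h APF, against the 2 h APF values given above, with no overlap and a difference of -6.28 ± 0.38 (SE; limma, adjusted p = 9.3e-11) or 77.5-fold. FBtr0100281, which at 2.53 above L3 at 6 h APF met the upper limit only through 2 h APF, is described without a test. It read 6.90, 7.00, 6.53 and 6.44 at 18 h APF, against 11.93, 11.90, 12.44 and 11.70 at 2 h APF. At 6 h APF its mean was 12.03 ± 0.71, against 11.99 ± 0.32 at 2 h APF, which is within the spread of the replicates.

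The strongest riser was FBtr0081077, which read 14.27, 14.38, 14.20 and 14.19 at 18 h APF, a difference of 2.76 ± 0.15 from 2 h APF (SE; limma, adjusted p = 1.3e-11) or 6.75-fold. It followed a course of high, low, high, high and low again, with means of 13.42 ± 0.10 at L3, 11.50 ± 0.16 at 2 h, 14.54 ± 0.12 at 6 h, 14.26 ± 0.09 at 18 h, 11.89 ± 0.13 at 24 h and 10.99 ± 0.47 at 36 h APF. The arrays of 6 and 18 h APF lay above all others, those of L3 came next, and replicates of a stage were close together except at 36 h APF. FBtr0085573, the plateau transcript above, was kept by the upper limit through 2, 18 and 24 h APF, so its difference of 2.60 between 18 h and 2 h APF is a description.

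Between 24 h APF and 18 h APF 26 members fell and 3 rose, or 25.2% and 2.91%. Over all transcripts 6.06% fell and 6.64% rose. Of the 90 members that met the upper limit through L3, 21 fell and 3 rose. The median difference was -0.26 for the members, against 0.03 over all transcripts. It ran from -0.43 without array C of 18 h APF to -0.15 without array B of 24 h APF. The rule used neither stage except through the upper limit on 6 h APF, and both lacked the notum. The count that rose was 1 without array A of 18 h APF and 5 without array B of 6 h APF or without array C or D of 36 h APF.

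FBtr0070066 read 9.71, 9.08, 9.41 and 10.08 at 24 h APF, against 12.35, 12.17, 11.89 and 12.86 at 18 h APF. It was kept only because 18 h APF was high, so no test is given for it. FBtr0073223 had the largest difference, -2.99 ± 0.57 (SE; limma, adjusted p = 0.00096), but it varied widely between replicates, with 7.34, 6.32, 5.92 and 7.08 at 24 h APF, against 11.35, 8.90, 8.69 and 9.66 at 18 h APF. Its 6 h APF arrays ran from 8.32 to 11.65.

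The 3 members that rose at 24 h APF were FBtr0080573, FBtr0080528 and FBtr0085474, named after their values were seen. FBtr0080573 read 10.46, 10.41, 10.80 and 10.52 at 24 h APF, against 9.43, 9.61, 9.26 and 9.60 at 18 h APF, a difference of 1.07 ± 0.18 (SE; limma, adjusted p = 0.00026). Its groups did not overlap. FBtr0080528 differed by 0.62 (limma, adjusted p = 0.014), also without overlap, and FBtr0085474 by 0.62 (limma, adjusted p = 0.021) with overlapping arrays. FBtr0080528 no longer passed without array A of 18 h APF, with a difference of 0.52, or without array A of 24 h APF, with 0.53. FBtr0085474 no longer passed without array A or D of 18 h APF, with 0.59 and 0.53, or without array B or D of 24 h APF, with 0.54 and 0.51.

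Between 24 h APF and 2 h APF 55 members fell and 10 rose, or 53.4% and 9.71%. Over all transcripts 16.2% fell and 15.7% rose. Of the 90 members that met the upper limit through L3, 47 fell and 8 rose. The median difference was -0.94 for the members, against 0.04 over all transcripts. FBtr0073783 fell most, by 6.43 on the log2 scale (limma, adjusted p = 6.3e-11). FBtr0100281, kept through 2 h APF alone, differed by -6.01, and FBtr0072785, kept through 18 and 24 h APF, read 11.79, 11.14, 10.52 and 11.93 at 24 h APF, against 9.25, 9.43, 8.56 and 9.85 at 2 h APF. Both are given as a description. FBtr0089651, which met the limit through L3, rose. It read 12.43, 12.39, 12.35 and 12.42 at 24 h APF, against 10.94, 10.82, 10.83 and 10.90 at 2 h APF, a difference of 1.53 ± 0.19 (SE; limma, adjusted p = 1.9e-06). Its 24 h APF arrays were close together, and at 36 h APF it read only 8.52, 8.23 and 8.94.

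**Figure D4:**
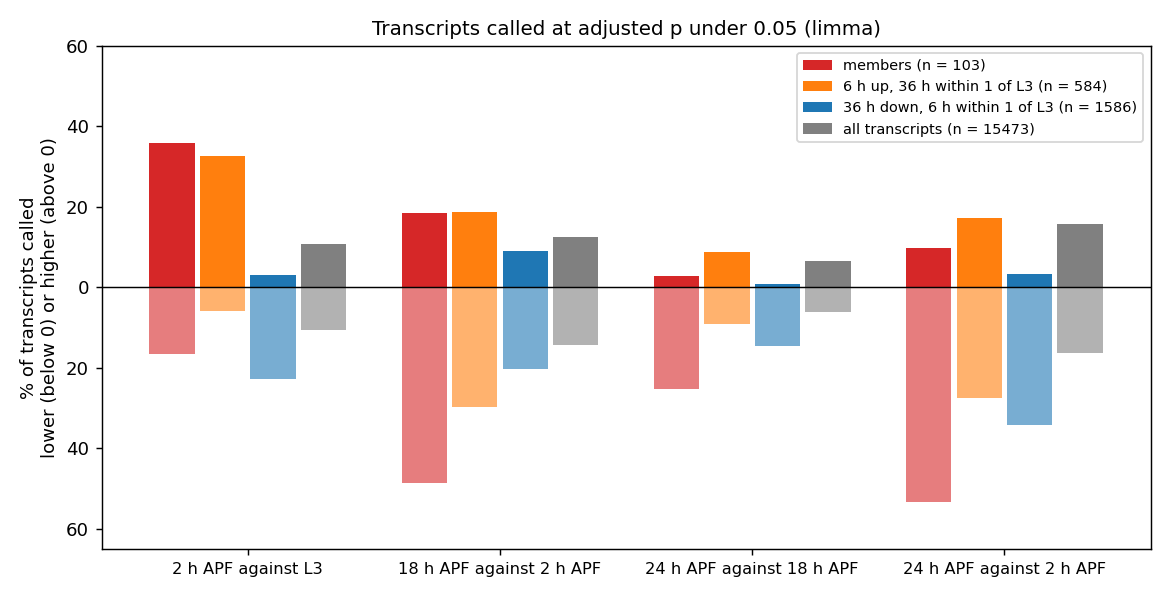
Share of transcripts (y axis, in %) called higher (above 0) or lower (below 0) at a limma adjusted p under 0.05 in 4 comparisons of stages (x axis). Bars stand for the 103 members, 2 sets that met only 1 of the fold limits (584 and 1586 transcripts) and all 15473 transcripts. The upper limit on 6 h APF was not applied to the set of 584. Members called lower make up 48.5% for 18 h against 2 h APF and 53.4% for 24 h against 2 h APF, with 14.3% and 16.2% over all transcripts.

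Transcripts that met only 1 of the fold limits were placed beside the module, with no test of the difference. One set held 584 transcripts at least 1 above L3 at 6 h APF with 36 h APF within 1 of L3, and the other 1586 transcripts at least 1 below L3 at 36 h APF with 6 h APF within 1 of L3. At 2 h APF against L3, the 35.9% of members that rose compared with 32.7% and 3.15% in these sets, and the 16.5% that fell with 5.99% and 22.7%. At 18 h APF against 2 h APF, the 48.5% of members that fell compared with 29.6% and 20.2%. At 24 h APF against 18 h APF, the 25.2% that fell compared with 9.08% and 14.6%. The rule fixed some directions among the 13 members kept through 2, 18 or 24 h APF. Of the other 90 members, 32.2% rose and 17.8% fell at 2 h APF against L3. In these 90, 47.8% fell at 18 h against 2 h APF and 23.3% at 24 h against 18 h APF. Their share of early risers was close to the 32.7% of the set high at 6 h APF. Their shares of fallers at 18 and 24 h APF were above those of both sets. The upper limit on 6 h APF was not applied to the set of 584. There 6 h APF lay up to 8.60 above L3, against 3.86 in the module. That limit acts through 2, 18 and 24 h APF, so the module and this set are not matched at the stages compared.

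From 2 h APF on, the typical spread between replicates was larger for the members than over all transcripts. The median SD of a member was 0.14 at L3, 0.29 at 2 h, 0.26 at 6 h, 0.37 at 18 h, 0.47 at 24 h and 0.37 at 36 h APF. Over all transcripts it was 0.15, 0.24, 0.23, 0.25, 0.29 and 0.28 at the same stages. Array C of 18 h APF was lower than the mean of the other arrays of its stage in 89 of the 103 members, by a median of 0.49 on the log2 scale, while 56.7% of all transcripts were lower there. Array B of 24 h APF was lower in 87 members, by a median of 0.38, while 49.6% of all transcripts were lower. Both arrays lay on the same slide, together with sample 2 of L3 and sample B of 36 h APF. Without the arrays of that slide, an alternative added after the data were seen, 47 members fell and 20 rose at 18 h APF against 2 h APF. At 24 h APF against 18 h APF, 25 fell and 3 rose. The shares over all transcripts without that slide are not given here, so these counts are not set against them.

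Each of the 6 slides carried 4 arrays, and some held both stages of a comparison. The members' median difference was 0.50 and 0.22 on the log2 scale on the slides with 2 h APF and L3. It was -0.34 and -0.75 on those with 18 h APF and 2 h APF, -0.15 and -0.33 on those with 24 h APF and 18 h APF, and -1.02 and -0.42 on those with 24 h APF and 2 h APF. Members called in a comparison moved in the called direction on these slides. On 1 slide 54 of the 55 members that fell at 24 h APF against 2 h APF did so, and elsewhere all did. These arrays also gave the calls, so this agreement was largely built in and is no check on slide effects. With slide as a fixed block, 28 members rose and 16 fell at 2 h APF against L3. At 18 h APF against 2 h APF, 46 fell and 18 rose. The shares over all transcripts with this block are not given here, so these counts are not set against them.

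In 5 members the 18 h APF mean was above the 6 h APF mean. The difference was 0.03 to 0.56 for 4 of them, no more than the larger SD of both stages, and 1.07 for FBtr0079547. They were FBtr0072157, FBtr0079547, FBtr0085573, FBtr0085651 and FBtr0089651, named after their values were seen. FBtr0072157 had means of 12.11 ± 0.18, 12.22 ± 0.12 and 12.09 ± 0.31 at 6, 18 and 24 h APF, which did not differ beyond their spread, and 9.17 ± 0.39 at 36 h APF. FBtr0079547 was highest at 24 h APF, with 10.54 ± 0.06 at L3, 11.93 ± 0.19 at 2 h, 11.71 ± 0.32 at 6 h, 12.78 ± 0.16 at 18 h, 13.23 ± 0.20 at 24 h and 9.36 ± 0.75 at 36 h APF. FBtr0085651 was dimmer, with 8.53 ± 0.37 at 6 h, 9.09 ± 0.64 at 18 h and 5.69 ± 0.70 at 36 h APF. FBtr0079936 was the only member lowest at 2 h APF, with 8.89 ± 0.24 at L3, 7.01 ± 0.35 at 2 h and 10.42 ± 1.15 at 6 h APF.

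Some members had consecutive identifiers, which the rule did not use. FBtr0074953 to FBtr0074956 were 4 such members and among the brightest. Their 36 h APF means were 10.32 ± 1.32, 11.13 ± 0.55, 10.24 ± 0.49 and 11.27 ± 0.69, and their 6 h APF means 15.27 ± 0.13, 15.74 ± 0.11, 14.99 ± 0.15 and 15.82 ± 0.09. FBtr0087855 and FBtr0087856 formed a pair, as did FBtr0088710 and FBtr0088711. Each member's stage means were set relative to its own mean over the 6 stages. On that scale members differed by at most 1.32 within the run of 4. The largest differences were 0.43 in the first pair and 1.13 in the second, all on the log2 scale. Members with near but not consecutive identifiers were not searched for, and some were alike too. FBtr0075301 and FBtr0075304, named after their values were seen, had means of 11.43 and 11.41 at 2 h APF. At 6 h APF these were 10.80 and 10.72, with 11.45 and 11.72 for FBtr0075042 and FBtr0075044. The files do not say whether such transcripts come from 1 gene or share probes. All these members may thus not be separate measurements, and counts and shares of members may hold repeats.

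Members resembled the mean course of the module to different degrees. The correlation (Pearson r) of a member's 6 stage means with the mean member profile, a description with no test, ran from 0.30 to 0.99 with a median of 0.89, and 44 members were above 0.9. Of the 15370 other transcripts 257 were above 0.9. The 5 most alike outside the module were FBtr0089610, FBtr0076181, FBtr0089591, FBtr0073473 and FBtr0079885, with r between 0.989 and 0.998. They followed the same course with smaller steps, such as 0.72 at 6 h APF and -0.80 at 36 h APF relative to L3 for FBtr0089610, and each missed at least 1 fold limit.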

How the data were processed

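Total wing RNA, amplified in a linear reaction and labelled with Cy3, was hybridized to 24 NimbleGen 4-plex expression arrays. The authors used NimbleScan for scanning and joint quantile normalization, and RMA (version not given in the sources used here) for a linear intensity per transcript. This forces the arrays to similar distributions. A series table of log2 values, also deposited, covered 15469 transcripts. Its 4 L3 columns hold each other's values, and it served as an alternative. Genome build and annotation release were not given in the sources used here.

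Log2 of the deposited intensities was fitted with limma 3.58.1 (lmFit and eBayes) in R 4.3.3 to 23 arrays, leaving out the pooled one, with a mean for each stage, no covariate and no filter. P-values were Benjamini-Hochberg adjusted over all transcripts and called under 0.05. The script was tested on simulated data. No depth applies to arrays, and their number limits the precision.

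The members and lists were chosen with earlier results of these data known. By rule, unnamed members were given by identifier as the 4 widest and 4 narrowest spans, the 2 strongest risers and fallers of 18 h APF against 2 h APF and of 24 h APF against 2 h APF, and those next to the limits. Gene lists, marker lists and promoter motifs need gene names and sequences, and were not analysed here. Alternatives covered the pooled array, slide, position and replicate letter as blocks, other tests and normalizations, a filter on dim transcripts, a 1.5-fold limit, other limits of the rule, and each array left out in turn. Slides were read from file names, with 1 incomplete number assigned to the slide that had an empty position.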

Additional observations from a re-analysis of the deposited data

Results flagged for a closer look

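Of 105 groups of 4 arrays examined for the described members and for the members' median, 10 held an array far from the other three by Dixon's ratio, and chance flags about 1 in 20 groups. Over all members 26 of 515 groups were flagged, or 5.05%, and 9 of these arrays were array C of 18 h APF. The median of the members was 8.48 on that array, with 9.35 to 9.47 on the others of its stage. On the same array FBtr0080229 read 6.23 with 7.29 to 7.49 on the others, and FBtr0081917 read 8.41 with 9.30 to 9.47. On array B of 24 h APF, from the same slide, FBtr0089956 read 5.99 with 6.92 to 7.08 on the others.

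On array B of 6 h APF, FBtr0077376 read 8.68 with 10.67 to 11.04 on the others, and FBtr0072785 read 12.82 with 13.47 to 13.61. The remaining cases were at L3, where replicates were close and the distances small. Sample 4 gave 9.43 for FBtr0083434 with 9.75 to 9.79 on the others, and 6.92 for FBtr0077376 with 6.48 to 6.53. Sample 3 gave 8.33 for FBtr0073783 with 8.15 to 8.17 on the others, and 9.93 for FBtr0089956 with 10.07 to 10.09.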

How the results depend on the processing

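No median of the members changed sign under the alternatives run, and none of 56 called results of single members reversed. With dim transcripts left out, 50 members and 7677 transcripts were left. Of these 50 members 19 rose at 2 h APF against L3, or 38.0%, with 18.7% of all transcripts left. At 18 h against 2 h APF 25 fell, or 50.0% with 21.5% of all left, at 24 h against 18 h APF 17, or 34.0% with 11.4%, and at 24 h against 2 h APF 27, or 54.0% with 24.4%. The count of 3 that rose at 24 h against 18 h APF was 5 with slide as a random block and 5 without arrays 6 h APF B, 18 h APF C and 24 h APF B, and ran from 1 to 5 with each array left out in turn. A 1.5-fold limit left 6 of the 10 that rose at 24 h against 2 h APF. With both limits of the rule at 0.75 there were 178 members, of which 56 rose at 2 h APF against L3, 81 fell at 18 h against 2 h APF, 5 rose at 24 h against 18 h APF and 91 fell at 24 h against 2 h APF. With both at 1.5 there were 36 members, with 14 and 6 that rose and fell at 2 h APF against L3, 6 and 17 at 18 h against 2 h, 1 and 13 at 24 h against 18 h, and 2 and 24 at 24 h against 2 h APF. Without the upper limit there were 129 members, of which 29 fell at 2 h APF against L3. Over all transcripts in the main fit, 10.9% rose and 10.5% fell at 2 h APF against L3. The shares that rose and fell were 12.4% and 14.3% at 18 h against 2 h APF. They were 6.64% and 6.06% at 24 h against 18 h, and 15.7% and 16.2% at 24 h against 2 h APF. For the limits at 0.75 and for no upper limit, the other counts are not given here.

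Leaving out each array in turn, the rule found 94 to 108 members. The median at 6 h APF against L3 ran from 1.48, without sample 1 of L3, to 1.64, and at 36 h APF against L3 from -1.70, without sample B of 36 h APF, to -1.55. Without the slide of 18 h APF C and 24 h APF B it was -1.69. The rule found 92 members with array medians centred again, all among the 103, and 94 with cyclic loess, of which 85 were among them. Of 56 called results of single members, 46 kept their call under every alternative run, and 89 of 2094 alternative values lost one.

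Replicate letters were shared by stages from 2 to 36 h APF, but same-lettered arrays correlated between -0.55 and 0.29 in their deviations from the stage means, so the letters were not taken to pair the samples. With the letter as a replicate block, 41 members fell and 16 rose at 18 h against 2 h APF. The counts were 20 and 4 at 24 h against 18 h, and 51 and 7 at 24 h against 2 h APF. The shares over all transcripts with this block are not given here, so these counts are not set against them. No paired analysis was possible for 2 h APF against L3 because L3 samples carry numbers.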
